A study of Mus musculus with 16 samples.

Results

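Ribosomal protein genes were followed in mouse rotator cuff muscle after removal of tendon with denervation, in a pair of inbred strains. The members were chosen by gene name, as every gene of the deposited count table whose symbol is Rpl or Rps followed by a number, with an optional a, x or l ending, together with Rplp0, Rplp1, Rplp2 and Rpsa. Rpl3 and Rpl3l were left out by the same rule. Of the 11710 genes in the table, 62 were members: 39 of the large subunit, 3 of which form its stalk, and 23 of the small subunit. The GENCODE annotation names 81 protein-coding genes that match the rule, of which 61 were in the table and 20 were not analysed here. The remaining member, Rps4l (chr6:148354656-148355598), is annotated as a transcribed processed pseudogene.

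RNA sequencing was done on 16 muscle samples in 4 groups of 4. The strains were C57BL/6J (BL6 below), the usual reference strain, and MRL/MpJ (MRL below), studied because some of its wounds close with little scar. In each strain the samples were unoperated controls or came from mice with a rotator cuff tenectomy, which removes tendon, and denervation. The series text names the infraspinatus and the sample labels the supraspinatus, and the time after surgery, age and sex are not given in the sources used here. Nor do the labels say whether samples of a group came from separate animals, so p-values measure the spread between these samples, which may be technical.

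The cytosolic ribosome is built from ribosomal RNA and about equal copies of each ribosomal protein, so cells make these proteins in step. Their mRNAs begin with a run of pyrimidines, the terminal oligopyrimidine or TOP tract, through which Larp1 and the kinase mTOR set how much of them is translated. Skeletal muscle ties ribosome production to growth and wasting. These genes have also left many processed pseudogenes in the mouse genome, intronless copies of their mRNAs that can be almost identical to the parent gene.

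That likeness decides how a read can be placed. Pairs were picked by strain difference, not by likeness. Each parent differed between the strains by at least 2 (log2) and had a copy in the count table. Rpl18 and Gm13436, left out by this choice, were 99.29% identical, against 98.72% for Rps18 and Gm10260. For each pair below, 60 bases of the parent's mRNA stand beside the same stretch of the copy, 5′ to 3′, from the GENCODE M21 transcripts (GRCm38), with the differing bases in capitals. The Rpl26 stretch joins exons within chr11:68902421-68903216 (plus strand), and its copy Gm15772 lies at chr5:3236577-3236636 (plus strand).
Rpl26: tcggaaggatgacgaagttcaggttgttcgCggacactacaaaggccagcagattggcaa
Gm15772: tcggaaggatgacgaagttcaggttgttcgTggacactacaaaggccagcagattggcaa

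The Rpl14 stretch is at chr9:120574280-120574339 and that of its copy Rpl14-ps1 at chr7:45325501-45325560, both on the plus strand.
Rpl14: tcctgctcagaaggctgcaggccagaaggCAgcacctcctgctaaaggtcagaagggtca
Rpl14-ps1: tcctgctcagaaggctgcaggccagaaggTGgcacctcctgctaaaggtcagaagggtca

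The Rps18 stretch is at chr17:33952221-33952280 and that of Gm10260, a copy annotated as protein coding, at chr13:97760206-97760265, both on the minus strand.
Rps18: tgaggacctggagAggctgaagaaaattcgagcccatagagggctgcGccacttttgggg
Gm10260: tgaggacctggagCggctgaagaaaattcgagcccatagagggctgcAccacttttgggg

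Over their whole overlap, Rpl26 and Gm15772 differed at 2 of 438 aligned bases, C177T and T288C, counted from 1 at the 5′ end of the copy, with the parent's base first. Rpl14 and Rpl14-ps1 differed by 4 substitutions and 1 gap over 653 bases, with an identical run of 419 bases. Rps18 and Gm10260 differed by 7 substitutions over 547 bases. A read that falls between such positions matches parent and copy equally. Whether such reads were counted, and where, is not given in the sources used here. The alleles that MRL carries at these positions were not analysed here.

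Total counts per sample ran from 24323862 to 43552964. In BL6 every operated library was shallower than every unoperated one, so depth and surgery went together there. Levels are CPM, the share of a library's counts scaled to a common total, on library sizes scaled by trimmed mean of M values. Each of the 8 muscle fibre markers was present, and their summed level ran from 126861 to 164719 CPM in unoperated BL6. The members took 0.359% ± 0.0298 of all counts in unoperated BL6 (SD, n = 4 here and below) and 0.705% ± 0.143 after surgery. In MRL they took 0.412% ± 0.0528 without and 0.561% ± 0.0790 with surgery.

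Summed over the 62 members, the level was 3726, 4108, 4010 and 3698 CPM in the unoperated BL6 samples and 6119, 7535, 6969 and 7064 CPM in the operated ones. These groups did not overlap, and their means, 3885 ± 205 and 6922 ± 590 CPM, stood in a ratio of 1.78. In MRL the unoperated samples held 4583, 3891, 3576 and 4099 CPM and the operated samples 5523, 5444, 6147 and 4183 CPM. Here the ratio of the means was 1.32, and replicate 4 of the operated group lay within the range of the unoperated samples. Adding the 13 counted copies to the sum gave ratios of 1.78 and 1.32. In whole muscle, a larger share of cells rich in these mRNAs and more of them per cell cannot be told apart.

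**Figure D1:**
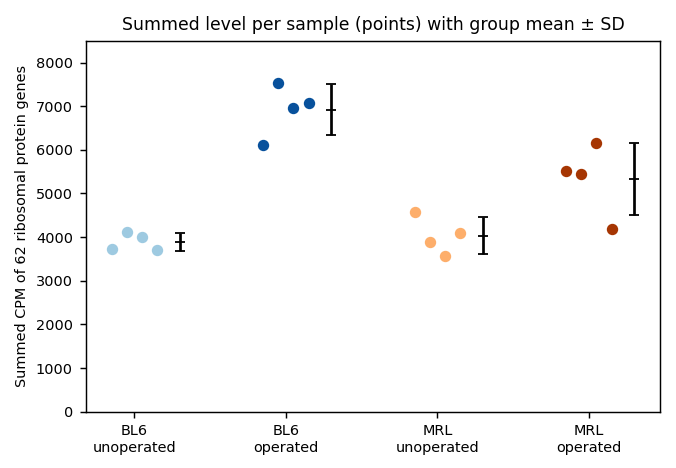
Summed CPM (y axis) of the 62 ribosomal protein genes in each sample (points) with the mean ± SD of each group (bars, n = 4). The operated BL6 samples, 6119 to 7535 CPM, lie above all unoperated BL6 samples, and 1 operated MRL sample, at 4183 CPM, lies among the unoperated MRL samples.

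In BL6 nearly the whole family was higher after surgery. Of the 62 members, 57 were higher and 0 lower after surgery at an adjusted p under 0.05 (edgeR's quasi-likelihood test with Benjamini-Hochberg adjustment over 11709 genes, the threshold for every call below). Of all genes tested, 35.1% were called higher and 32.8% lower, 67.9% in all. The median log2 fold change was 0.96 over the members and 0.04 over all genes. In 56 members the operated and unoperated samples did not overlap, as in 56.8% of all genes, and 30 members were called and at least doubled, as were 16% of all genes. All members were measured in the same libraries, so these counts are not independent of each other. Scaling by total counts moved the median of all genes to 0.18 and that of the members to 1.11, with 58 called higher.

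In MRL fewer members passed the test, and again none was lower. There 33 of 62 were called higher, where 22.3% of all genes were called higher and 22.7% lower (45% in all), and the median log2 fold change was 0.45 against 0.01 over all genes. The groups were apart in 10 of 62 members, a smaller share than the 33.7% of all genes, and 5 members were called and at least doubled, against 7.37% of all genes. All 33 were among the 57 of BL6, which left 24 called in BL6 alone and 5 called in neither strain. Replicate 1 of unoperated MRL held the highest summed level of its group and replicate 4 of operated MRL the lowest of its own. Without the first 45 members were called higher in MRL, and without the second 43.

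**Figure D2:**
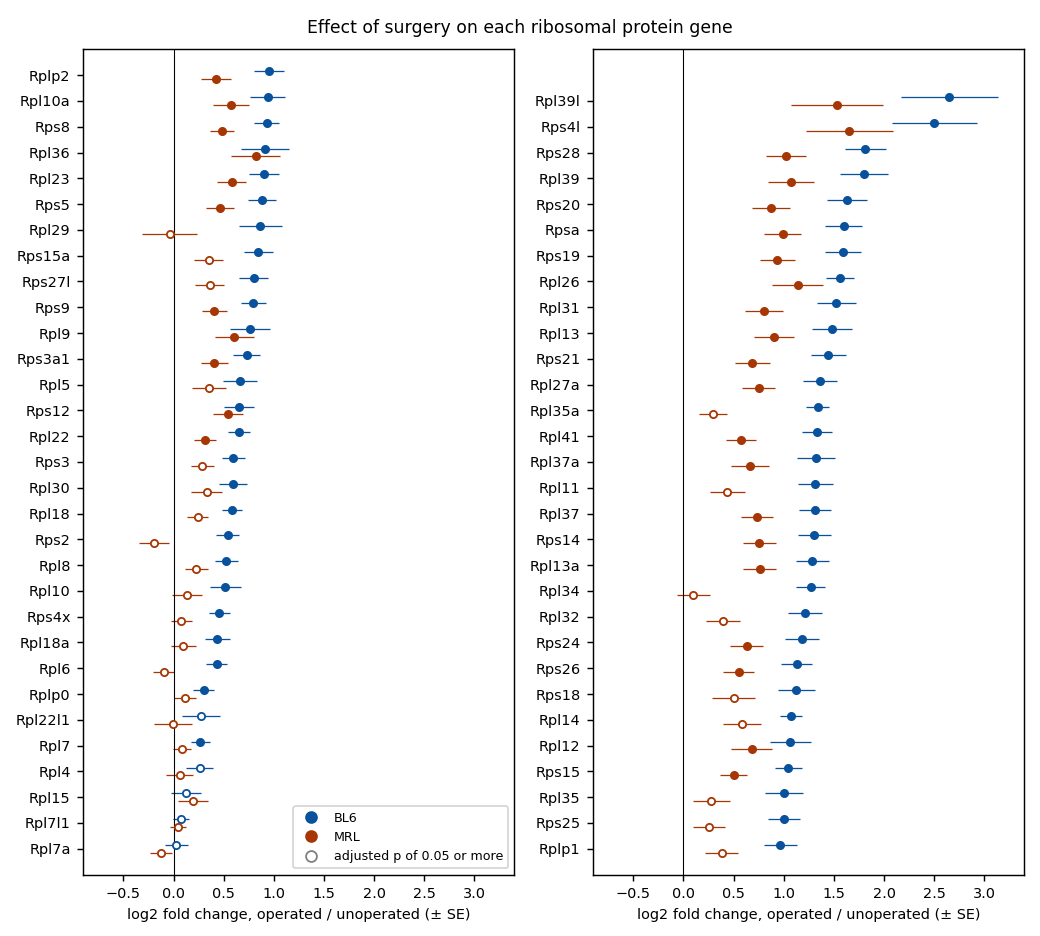
Log2 fold change of operated over unoperated muscle (x axis, ± SE) for 61 of the 62 members (y axis), ordered by the BL6 value, in BL6 and MRL, with open circles where the adjusted p was 0.05 or more. Over all 62 the median is 0.96 in BL6 and 0.45 in MRL, and no member was called lower in either strain.

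Among large subunit proteins outside the stalk, 31 of 36 were higher in BL6 (median 0.92) and 16 of 36 in MRL (median 0.37). Rpl39 (chrX:37082520-37085402), a small protein that lines the tunnel through which the new chain leaves, was at 19.7, 17.2, 13.4 and 14.2 CPM in unoperated BL6 and 46.7, 49.8, 62.7 and 64.9 CPM in operated BL6. Its groups were far apart, with a log2 fold change of 1.80 (SE 0.24, edgeR adjusted p = 2.88e-05). In MRL it went from 34.8, 23.7, 19.4 and 25.1 CPM to 65.4, 59.3, 63.2 and 29.2 CPM, a log2 fold change of 1.07 (SE 0.23, edgeR adjusted p = 0.00318). Replicate 4 of the operated group was the exception there, below the highest unoperated sample.

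Rpl26 (chr11:68901583-68906989), a large subunit protein beside the tunnel exit, was at 31.03, 43.6, 40.1 and 37.1 CPM in unoperated BL6 and 100.02, 123, 117 and 108 CPM after surgery. Every operated sample was above every unoperated one, and the log2 fold change was 1.56 (SE 0.14, edgeR adjusted p = 5.9e-06). Its values in MRL are taken up with its copy below.

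The 5 members not called in BL6 were all of the large subunit. Rpl4, which helps to line the exit tunnel, was at 392, 461, 506 and 500 CPM in unoperated and 528, 716, 501 and 484 CPM in operated BL6 (log2 fold change 0.26, edgeR adjusted p = 0.0971), and the groups overlapped. Rpl15, Rpl7a, Rpl7l1 and Rpl22l1 overlapped too, with log2 fold changes of 0.13, 0.03, 0.07 and 0.27. None of the 5 was called in MRL, where their log2 fold changes ran from -0.13 in Rpl7a to 0.19 in Rpl15. Rpl4 and these 4 were named because they are the uncalled remainder, after their values were seen.

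The stalk is the arm of the large subunit that recruits translation factors. In BL6 its 3 proteins were all called higher. Rplp1 went from 203, 234, 228 and 190 CPM to 341, 414, 435 and 479 CPM (log2 fold change 0.96, SE 0.17, edgeR adjusted p = 0.000169), and Rplp2 rose by 0.95 on the same scale. Rplp0, the base of the stalk, was called with a small change of 0.30 (edgeR adjusted p = 0.0216), and replicate 1 of the operated group, at 274 CPM, lay within the unoperated range of 248 to 279 CPM. That call was lost when only the compared groups were fitted, with an edgeR adjusted p of 0.0746, and without replicate 4 of unoperated or replicate 3 of operated BL6. In MRL Rplp2 alone was called (0.42, edgeR adjusted p = 0.0289), and it too was lost by total counts and without replicate 2 or 3 of unoperated or replicate 3 of operated MRL, at an edgeR adjusted p of up to 0.107. Rplp1 had a log2 fold change of 0.38 in MRL and Rplp0 one of 0.11.

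All 23 small subunit members were higher in BL6 (median 1.05), and 16 of 23 in MRL (median 0.50). Rps28 (chr17:33819027-33824562), which sits near the path by which mRNA leaves the subunit, was at 10.03, 13.8, 12.6 and 10.5 CPM in unoperated BL6 and 37.2, 42.4, 42.8 and 42.3 CPM in operated BL6. The rise was 1.81 on the log2 scale (SE 0.20, edgeR adjusted p = 1.43e-05), without overlap. In MRL Rps28 went from 20.5, 16.2, 13.4 and 14.4 CPM to 38.0, 31.8, 42.1 and 18.8 CPM (log2 fold change 1.02, SE 0.20, edgeR adjusted p = 0.00208). Replicate 4 again fell among the unoperated samples.

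Rps20, a protein of the small subunit's head, showed the same picture. It was at 54.7, 62.4, 51.5 and 49.0 CPM in unoperated BL6 and 151, 175, 187 and 160 CPM in operated BL6, a log2 fold change of 1.63 (SE 0.19, edgeR adjusted p = 1.79e-05). In MRL it rose by 0.87 (SE 0.19, edgeR adjusted p = 0.00339). Rpsa, a small subunit protein also known as the laminin receptor precursor, rose from 3.03, 3.11, 3.73 and 3.14 CPM to 9.04, 8.75, 11.02 and 10.5 CPM in BL6, a log2 fold change of 1.60 (SE 0.18, edgeR adjusted p = 1.51e-05).

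Paralogs did not all move with their partners. Rpl39l, the paralog of Rpl39 best known from testis, was counted at 11 to 30 reads per library in unoperated BL6 and 36 to 213 in operated BL6. Its log2 fold change was 2.65 (SE 0.48, edgeR adjusted p = 0.000265) in BL6 and 1.53 (SE 0.46, edgeR adjusted p = 0.0149) in MRL. In MRL it had 14 to 54 reads per unoperated and 46 to 149 per operated library, and the CPM of these groups overlapped. Rpl22 rose in BL6 from 91.3, 101, 98.3 and 99.99 CPM to 131, 170, 153 and 159 CPM (log2 fold change 0.65, SE 0.11, edgeR adjusted p = 0.000162). Rpl22l1, its paralog, was at 31.6, 30.2, 22.3 and 22.5 CPM before and 27.9, 44.3, 31.1 and 25.5 CPM after surgery, and its groups overlapped. The difference between these paralogs was not tested.

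Rpl22 was also called in MRL, by 0.31, and 9 alternatives ended that call, 6 of them the omission of 1 MRL library, at edgeR adjusted p-values of up to 0.100. Rpl7 was called in BL6 (0.27, edgeR adjusted p = 0.0203) but lost the call without replicate 4 of the operated group, among others, at 0.0606. Rps27l, a paralog of Rps27 induced by p53, rose by 0.80 in BL6 (SE 0.14, edgeR adjusted p = 0.000241). Rps4l, the member annotated as a pseudogene, went from 1.86, 1.60, 1.22 and 1.16 CPM to 7.71, 4.92, 6.09 and 14.4 CPM in BL6, a log2 fold change of 2.50 (SE 0.43, edgeR adjusted p = 0.00016), and it rose by 1.65 in MRL (SE 0.43, edgeR adjusted p = 0.00787).

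Whether the strains differed in the surgery effect was tested by the interaction, the MRL effect minus the BL6 effect. It was called for 2 of 62 members, Rpl34 and Rpl35a, both with the smaller effect in MRL. Of all genes tested, 0.248% were called, 0.154% with the larger and 0.0939% with the smaller effect in MRL. By sign alone, 61 of 62 members had the larger effect in BL6, with a median interaction of -0.53 over members and -0.01 over all genes. At an unadjusted p under 0.05 the quasi-likelihood test had 36 of 62 members and 15.7% of all genes. The surgery and strain comparisons share groups, so their counts below are not separate evidence.

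Rpl34 (chr3:130726831-130730398), a large subunit protein, rose in BL6 from 66.1, 71.2, 60.4 and 57.1 CPM to 129, 150, 171 and 163 CPM. In MRL it was at 2.84, 3.02, 2.68 and 2.06 CPM before and 2.31, 2.88, 3.73 and 2.42 CPM after surgery, with overlap. The interaction was -1.17 (SE 0.22, edgeR adjusted p = 0.0387). Rpl35a (chr16:33056453-33060189), also of the large subunit, went from 39.3, 38.8, 39.2 and 36.3 CPM to 89.4, 106, 101 and 92.2 CPM in BL6. In MRL it was at 2.29, 1.56, 1.64 and 2.25 CPM before and 2.11, 2.43, 2.80 and 2.16 CPM after, and the interaction was -1.04 (SE 0.18, edgeR adjusted p = 0.0347).

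Both are among 8 members whose level differed between the strains by at least 2 on the log2 scale, and the other 54 members had 0 interaction calls. The calls depended on single libraries: leaving out 1 library at a time left 0 to 2 members called. Both calls remained without replicate 2 or 4 of operated BL6 or replicate 3 of operated MRL. Rpl35a alone was called without replicate 2 or 3 of unoperated MRL or replicate 4 of operated MRL, and neither was called without any of the other 10 libraries. The adjusted p ran from 0.000105 to 0.136 for Rpl34 and from 1.76e-05 to 0.0975 for Rpl35a over all alternatives, the lowest from DESeq2.

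Strain differences were large in a few members and small in most. Among unoperated samples 17 of 62 were called, 7 higher and 10 lower in MRL, where 5.02% of all genes were called higher and 5.36% lower (10.4% in all). Among operated samples 15 were called, 1 higher and 14 lower, against 7.6% and 5.27% of all genes (12.9% in all), and 11 were called in both. The samples of the strains did not overlap in 24 of 62 unoperated and 13 of 62 operated members, against 25.1% and 13.6% of all genes. The unoperated split depended on scaling, with 12 higher and 10 lower by total counts, where the median of all genes was 0.15 in place of 0.01. It also fell to 11 called without replicate 4 of unoperated BL6 or replicate 1 of unoperated MRL.

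The 8 members with the large differences were Rpl14, Rpl26, Rpl29, Rpl30, Rpl34, Rpl35a, Rps18 and Rps2, all lower in MRL. Just inside the limit of 2, Rpl30 differed by -3.05 unoperated and -3.31 operated. Just outside it, Rplp0 differed by -1.51 and -1.70. Members called higher in unoperated MRL differed by far less, among them Rpl15 by 0.72, Rpl41 by 0.62, Rpl10 by 0.61, Rps25 by 0.55, Rps15a by 0.49 and Rpl18 by 0.34. Of these, Rpl15 kept its call in operated samples, with a difference of 0.78 (SE 0.15, edgeR adjusted p = 0.00252), except when only the compared groups were fitted. Rpl10, Rpl41, Rps15a and Rps25 lost theirs in 2 to 9 alternatives, at adjusted p-values of up to 0.142 in edgeR's test for Rps25. Rpl18 was not called between unoperated strains with its copy summed (0.33, edgeR adjusted p = 0.0567). Its unoperated samples of BL6 and MRL overlapped.

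**Figure D3:**
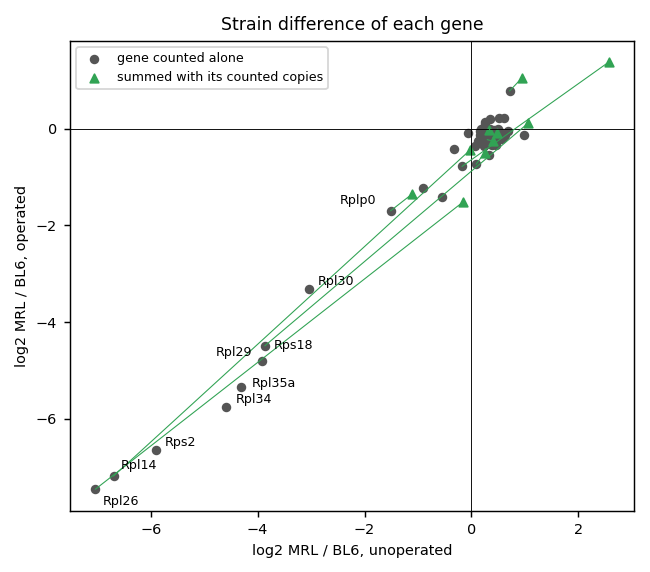
Log2 difference of MRL over BL6 in unoperated (x axis) and operated (y axis) samples for each member counted alone (circles), joined by lines to the value summed with its counted copies (triangles). Most of the 62 members lie near 0 on both axes, 8 circles lie below -2 on both, and no triangle does.

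For 3 of the 8, a copy was in the count table, and it was high in MRL where the parent was low. Rpl26 in MRL was at 0.245, 0.358, 0.290 and 0.244 CPM unoperated, from 8 to 14 reads, while Gm15772 was at 41.4, 30.9, 28.5 and 34.3 CPM. After surgery Rpl26 was at 0.568, 0.832, 0.781 and 0.395 CPM and Gm15772 at 37.96, 43.5, 42.6 and 30.2 CPM in MRL. In unoperated BL6 the copy was at 0.106 to 0.180 CPM. The copy took 99.1% ± 0.259 of the counts of the pair in unoperated MRL and 0.383% ± 0.136 in unoperated BL6. With parent and copy summed, the strain difference of Rpl26 went from -7.03 to -0.16 in unoperated samples and from -7.46 to -1.52 in operated ones.

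Rpl14, another large subunit protein, followed the same course. Its level was 39.4, 42.6, 39.8 and 42.7 CPM in unoperated BL6 and 0.520, 0.460, 0.290 and 0.298 CPM in unoperated MRL. Rpl14-ps1 took 99.3% ± 0.206 of the pair's counts in unoperated MRL and 23.5% ± 2.47 in unoperated BL6. Summed, the pair was at 53.7 ± 1.05 CPM in unoperated BL6 and 52.7 ± 5.95 CPM in unoperated MRL, and the strain difference went from -6.69 to -0.03 (SE 0.14, edgeR adjusted p = 0.927). Between operated samples it went from -7.18 to -0.44, still called lower in MRL (SE 0.14, edgeR adjusted p = 0.0418).

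Rps18, at the head of the small subunit, was at 26.3, 26.5, 25.4 and 21.2 CPM in unoperated BL6 and 2.05, 1.81, 1.23 and 1.71 CPM in unoperated MRL. Gm10260 took 96.8% ± 0.328 of the counts of the pair in unoperated MRL and 0.323% ± 0.277 in unoperated BL6. Here the sum went past even: the strain difference changed from -3.86 to 1.07 (SE 0.12, edgeR adjusted p = 1.86e-05) in unoperated samples and from -4.49 to 0.12 in operated ones.

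**Figure D4:**
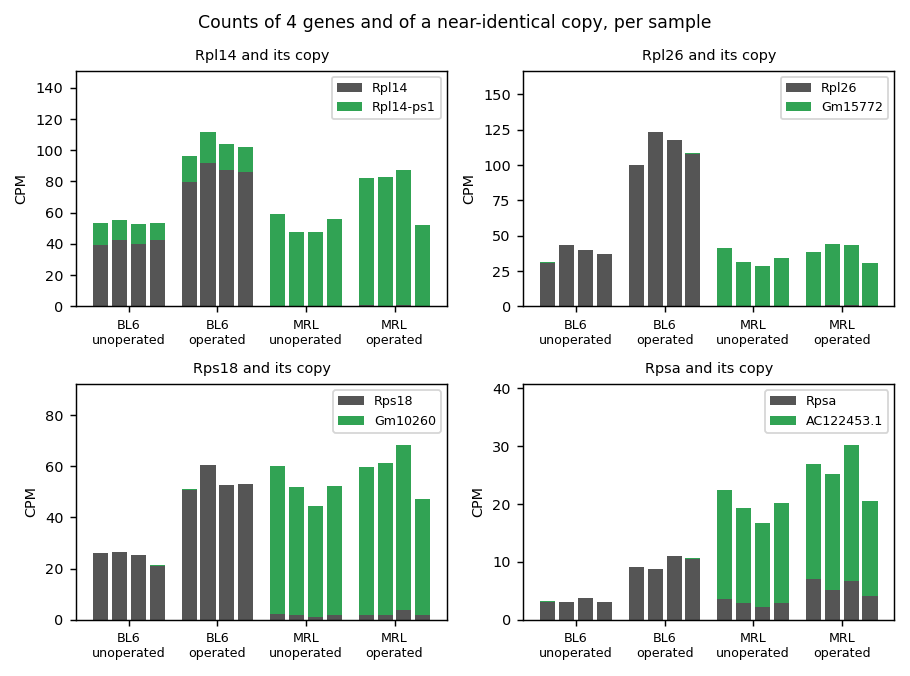
CPM (y axis) of Rpl14, Rpl26, Rps18 and Rpsa, each stacked with a counted copy, with 1 bar for each of the 16 samples. In MRL nearly all counts of the Rpl14, Rpl26 and Rps18 pairs stand at the copy, in BL6 most stand at the parent.

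Outside the 8, copies were also counted for 7 members. AC122453.1, a copy of Rpsa, took 85.4% ± 1.16 of the pair's counts in unoperated MRL and 1.72% ± 2.08 in unoperated BL6. Rpsa alone differed by -0.18 between unoperated strains, and with its copy by 2.57 (SE 0.14, edgeR adjusted p = 3.26e-09). Between operated strains Rpsa alone was lower in MRL, at a mean of 5.74 CPM against 9.84 in BL6. With its copy it was higher in MRL by 1.38 (SE 0.13, edgeR adjusted p = 2.39e-06). The copy Gm8420 of Rpl15, at no more than 2 reads in any BL6 library, was at least 93.4-fold higher in unoperated MRL, against a floor of 3 reads per library. Gm4987, the copy of Rpl32, was at least 87.5-fold higher on the same terms, and took 10.3% ± 1.07 of its pair's counts in unoperated MRL. The 3 copies of Rplp0 took 26.0% ± 1.20 in unoperated MRL and 2.89% ± 0.231 in unoperated BL6, and summing them moved the strain difference from -1.51 to -1.12. For Rpl18, Rpl13a and Rps24 the shares lay closer together. In unoperated BL6 and MRL they were 12.3% ± 1.03 and 11.5% ± 0.739 for Rpl18, which overlapped, 20.2% ± 0.247 and 25.7% ± 3.48 for Rpl13a, and 19.6% ± 0.648 and 17.5% ± 0.667 for Rps24, which did not.

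For the other 5 of the 8, no copy was in the count table. The annotation holds 80 near-identical copies of Rpl29, 65 of Rps2, 23 of Rpl35a, 17 of Rpl30 and 11 of Rpl34, none of which was analysed here. Rps2, which lies near the mRNA entry of the small subunit, was at 71.6, 85.4, 81.7 and 70.5 CPM in unoperated BL6 and 1.28, 1.05, 1.52 and 1.30 CPM in unoperated MRL, a difference of -5.91 (SE 0.15, edgeR adjusted p = 2.17e-13). Rpl29, a protein also known to bind heparin, was at 9.61, 11.8, 12.4 and 9.88 CPM in unoperated BL6 and 1.01, 0.537, 0.452 and 0.894 CPM in unoperated MRL. Whether MRL reads of these genes were placed at copies was not tested. Rps3a1, with 7 annotated copies and none counted, differed by -0.91 and -1.23 between unoperated and between operated strains.

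The surgery effect within a strain was then described with and without these 8 members. In BL6 all 8 were called higher, with a median of 1.10, and 49 of the other 54, with a median of 0.94. In MRL 1 of the 8 was called, with a median of 0.31, and 32 of the other 54, with a median of 0.48. Over the 54 the median interaction was -0.51, beside -0.53 over all 62. The 54 still hold Rpsa, Rplp0, Rpl15 and Rpl32, whose copies took a larger share in MRL. Over the 47 members with neither a strain difference of 2 nor a counted copy, 43 were called higher in BL6 (median 0.94) and 29 in MRL (median 0.49). Their median interaction was -0.50 with 0 called. Many of the 47 have annotated copies that are not in the count table, such as 93 for Rpl7a and 29 for Rpl31. Whether reads of the 47 were placed at such copies was not tested.

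Summing copies mattered for single genes in MRL. Rpl26 alone rose by 1.14 in MRL (SE 0.25, edgeR adjusted p = 0.00363), on 8 to 24 reads per library, a call that limma voom did not make. Rpl26 with Gm15772 changed by 0.20 (SE 0.14, edgeR adjusted p = 0.251). Rps18 changed from 0.50 to 0.18, neither of them called, and Rpsa from a called 0.99 to a called 0.39 (SE 0.13, edgeR adjusted p = 0.0222). Rpl14 went from an uncalled 0.58 to 0.53, which was called (SE 0.14, edgeR adjusted p = 0.00706). In the summed fit the interaction was called for 5 members: Rpl34, Rpl35a, Rpl26 at -1.36 (edgeR adjusted p = 0.0218), Rpsa at -1.19 (0.0219) and Rps18 at -0.95 (0.0331). Summed counts left 57 members called higher in BL6 and 35 in MRL. Between unoperated strains 8 members were then called higher and 7 lower in MRL, beside 578 and 624 of 11696 genes. Between operated strains 2 were higher and 11 lower, beside 881 and 612 of 11696 genes.

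Markers of some other cell types also changed with surgery. The 4 adipocyte markers in the table summed to 208 to 279 CPM in unoperated BL6 and 1209 to 1656 CPM in operated BL6, and to 262 to 369 and 1086 to 1902 CPM in MRL. The 5 Schwann cell markers summed to 53.6 to 70.8 and 135 to 334 CPM in BL6, and to 38.4 to 83.4 and 63.4 to 228 CPM in MRL. The 5 endothelial markers summed to 268 to 368 and 548 to 695 CPM in BL6, and to 203 to 288 and 292 to 726 CPM in MRL. Of 8 macrophage markers, which summed to 38.3 to 142 and 83.4 to 528 CPM in BL6, 5 were called higher there and 1 in MRL. Of 6 fibroblast markers 3 were called higher in BL6 and 0 in MRL. Of 8 muscle fibre markers 3 were lower in BL6 and 2 in MRL. The muscle fibre markers summed to 126861 to 164719 and 54736 to 152853 CPM in BL6, which overlapped. In MRL they summed to 115142 to 128345 and 77121 to 101825 CPM, without overlap. Of 5 red blood cell markers 0 were called in either strain. Of 3 satellite cell and myoblast markers 1 was higher and 2 lower in BL6, and 1 higher and 1 lower in MRL. Of all genes, 35.1% were called higher and 32.8% lower in BL6, and 22.3% and 22.7% in MRL. The numbers of muscle fibre markers called lie near these shares. Every marker in the table had a mean above 0, Lep, Myf5 and the 4 proliferation markers were not analysed here, and the part of these cells in the ribosomal protein change was not tested.

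Shorter members changed more than longer ones. Across the 61 members with an annotated coding sequence, coding length and surgery effect had a Spearman correlation of -0.57 in BL6 and -0.44 in MRL. Across all 11232 genes with a coding length, the values were -0.22 and -0.12. The 21 members with 138 to 387 coding bases had a median effect of 1.27 in BL6, and the 20 with 624 to 1257 bases one of 0.53. The other genes of those lengths had medians of 0.62 (461 genes) and 0.11 (3374 genes). These correlations are across genes, which share the same libraries, and whether RNA quality or fragment length played a part was not tested.

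**Figure D5:**
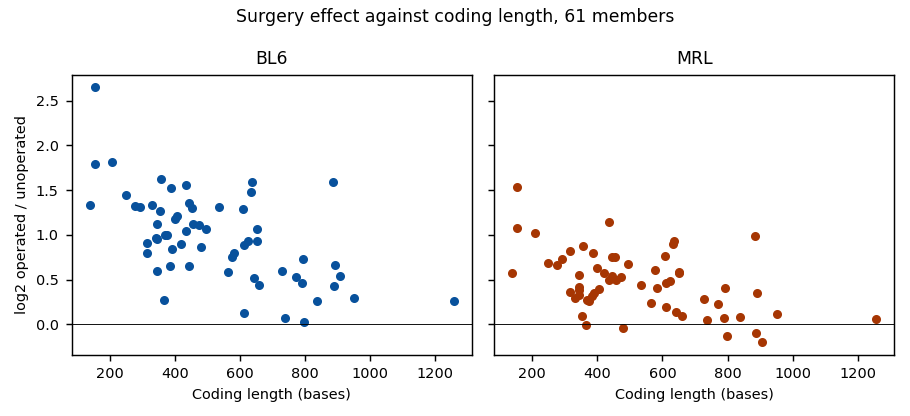
Surgery effect (log2 operated over unoperated, y axis) against coding length in bases (x axis) for 61 members in BL6 and MRL. The points fall with length in both strains, with Spearman correlations of -0.57 and -0.44.

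Promoters of the members were compared for motifs, since the members moved together. RefSeq promoter windows (GRCm38.p6), from 250 bases before to 50 after the start, were matched for 48 of 62 members. The ETS factor core CCGGAAG, on either strand, was in 21 of 48 (43.8%), against 20.1% of 9081 other listed genes. GCCATNTT, the core bound by YY1, was in 10 of 48 (20.8%) against 10.1%. A run of at least 10 pyrimidines within 30 bases of the start, on the sense strand, was in 21 of 48 (43.8%) against 13.1%. Matches of different searches can share bases, as in Rpl34, where CCGGAAG on the other strand lies partly in a pyrimidine run. The motif counts are therefore not independent of each other, and a match is a description of the letters. Rps28 (chr17:33824543-33824642, minus strand) and Rpl26 (chr11:68901486-68901585, plus strand) are shown from 80 bases before to 20 after the start. Both have a motif match in that stretch, given in capitals. Rpl39l, Rpl39 and Rpsa changed more than Rpl26 in BL6 and have no match in that stretch. Each of them has CCGGAAG elsewhere in its window.
Rps28: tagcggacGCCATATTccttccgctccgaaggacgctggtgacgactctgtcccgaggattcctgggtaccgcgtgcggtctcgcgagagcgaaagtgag
Rpl26: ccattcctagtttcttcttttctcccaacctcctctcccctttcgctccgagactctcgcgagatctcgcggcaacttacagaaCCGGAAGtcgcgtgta

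Genes around the ribosome were called in both directions. The counts below stand beside 35.1% of all genes called higher and 32.8% lower in BL6, and 22.3% and 22.7% in MRL. Of 15 other TOP mRNAs, 8 were higher and 1 lower in BL6 (median 0.31), and 4 higher and 1 lower in MRL (median 0.21). Eef1a1, the elongation factor that brings tRNA to the ribosome, was at 92.4, 100.4, 81.5 and 70.4 CPM in unoperated and 256, 258, 291 and 459 CPM in operated BL6, a log2 fold change of 1.87 (SE 0.23, edgeR adjusted p = 2.11e-05). In MRL Eef1a1 rose by 1.01. Npm1 (0.77 and 0.73), Gas5 (0.96 and 0.70) and Snhg1 (0.82 and 0.41) rose in both strains, and Naca, a chaperone subunit at the tunnel exit, fell by 1.14 in the BL6 samples and by 0.72 in MRL. Eef1b2 and Eef1d, partners of Eef1a1, rose in BL6 by 0.59 and 0.69, and had log2 fold changes of 0.22 and 0.37 in MRL that were not called.

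Of 29 ribosome assembly genes, 6 were higher and 13 lower in BL6 (median -0.19), and 2 higher and 13 lower in MRL (median -0.29). Polr1a, the largest subunit of the polymerase that transcribes ribosomal RNA, was at 54.8, 58.4, 76.4 and 80.3 CPM in unoperated and 42.5, 43.2, 34.9 and 26.6 CPM in operated BL6, and it fell by 0.88 there. In MRL Polr1a fell by 0.49. Polr1b fell by 0.56 and by 0.35, while Polr1c, shared with RNA polymerase III, rose by 0.55 and 0.24. Dkc1, which modifies ribosomal RNA, had the largest fall of these genes in the BL6 samples, 1.17, and fell by 0.68 in MRL.

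Of 14 regulators of ribosomal protein mRNA, 3 were higher and 8 lower in BL6 (median -0.54), and 2 higher and 6 lower in MRL (median -0.32). Larp1, which binds the TOP tract, was at 116, 130, 149 and 154 CPM in unoperated and 47.5, 58.6, 43.6 and 46.6 CPM in operated BL6, without overlap (log2 fold change -1.48, SE 0.17, edgeR adjusted p = 1.43e-05). In MRL Larp1 fell by 0.84. Mtor fell by 0.64 and by 0.35, and Rptor, its partner, fell by 0.95 in BL6 and had a log2 fold change of -0.44 in MRL that was not called. Deptor, an inhibitor of mTOR, fell by 1.63 and by 0.73, and Tsc1, which restrains mTOR, by 1.24 and by 0.77. Log2 fold changes of these regulators reached 1.49 in BL6 and 0.51 in MRL, in genes not named here. Ribosomal proteins outside the naming rule rose in BL6, Rack1 by 0.57 and Rpl36al by 1.28, and Rpl36al rose in MRL by 0.79. In these 4 lists 0 genes had a called interaction by edgeR, where 0.248% of all genes had one.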

How the data were processed

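The authors deposited whole-number counts per gene for the 16 samples, with no normalization. The submitters' processing notes name FastQC, STAR, edgeR and mm10, without versions. The counting program, annotation, use of strand and handling of reads that match several places are not given in the sources used here. Per the labels' protocols, RNA came from minced muscle by a column kit with DNase, and libraries followed standard Illumina protocols. The authors' own edgeR table was not used.

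In R 4.3.3 with edgeR 4.0.16, counts were scaled by TMM and filterByExpr (minimum count 10) kept 11709 of 11710 genes. The quasi-likelihood fit used all 16 samples and gave each group its own mean, and p-values were adjusted by Benjamini-Hochberg over all genes. CPM use TMM-scaled library sizes. Alternatives were DESeq2 1.42.0, limma 3.58.1 (voom), other scalings and filters, the compared groups alone, copies summed with their parent, a replicate block and leaving out each sample. The code was tested on simulated data.

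Near-identical copies were GENCODE M21 transcripts (GRCm38) aligned by BLAST over at least 100 bases at 90% identity or more. Coordinates are from that annotation, 1-based. Floors of 3 counts cover counting error only. Replicates differed by more than sampling noise, so none was merged.

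The members and lists were chosen with earlier results of these data known. Named members are the 6 largest called rises and falls per comparison, and those with a strain difference of at least 2 (log2). The stalk proteins with Rpsa, listed paralog pairs and their copies were named too. Genes named from each list were taken from its first 3 and from those called in both strains, not all of which are named. Members named outside this rule are Rpl4, Rpl7a, Rpl18 and Rps3a1. Of the members, 1 is counted but not reported by name here.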

Additional observations from a re-analysis of the deposited data

Results flagged for a closer look

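In 116 groups of 4 samples from the named members and the summed level, 1 sample stood far from the other 3 in 8 groups by Dixon's test, where chance gives about 1 in 20. Operated MRL replicate 4 was low for Rpl39 (29.2 CPM, others 59.3 to 65.4) and Rpl22l1 (29.8 CPM, others 39.9 to 40.8). Operated MRL replicate 3 was high for Rps4l (6.14 CPM, others 1.95 to 2.31) and Rps18 (3.91 CPM, others 1.87 to 1.95). Operated BL6 replicate 1 was low for Rps28 (37.2 CPM, others 42.3 to 42.8) and Rplp0 (274 CPM, others 339 to 350.3). Unoperated MRL replicate 1 was high for Rps15a (94.5 CPM, others 66.7 to 71.2), and unoperated BL6 replicate 3 for Rpsa (3.73 CPM, others 3.03 to 3.14). The surgery effect was called different between the strains, by edgeR's interaction test, for Rpl34 (-1.17) and Rpl35a (-1.04). Both calls were lost by total counts, by limma voom and with the replicate block. In MRL these genes had few reads, 57 to 118 per library for Rpl34 and 51 to 83 for Rpl35a.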

How the results depend on the processing

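The counts of members called after surgery ran from 56 to 57 in BL6 and from 24 to 45 in MRL on leaving out a library, the lowest without replicate 3 of operated MRL, and that between operated strains from 13 to 16. Under the other alternatives they ran from 46 (with a minimum of 10 CPM in 4 samples, which tests 50 members) to 58 in BL6, from 32 to 38 in MRL, and from 10 (only the compared groups, 0 of them higher) to 16 between operated strains. The interaction count of 2 went to 0 by total counts, by limma voom and with the replicate block, to 5 with DESeq2 and with copies summed, and ran from 0 to 2 on leaving out a library; it cannot be fitted on the compared groups alone. The unoperated strain count of 17 went to 26 with DESeq2 and with only the compared groups, and ran from 11 to 18 on leaving out a library. The cause was not tested, except that copies summed moves reads by construction.

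Samples of the same replicate number correlated in their deviations by -0.141 on average across surgery in BL6, 0.0920 across surgery in MRL, and 0.160 and 0.165 across strains in unoperated and operated samples. Single pairs across strains went down to -0.110 and -0.0958, so not every pair was over 0.1 and the numbers were not taken to pair samples. The replicate block left 57 (BL6), 32 (MRL), 14 (unoperated strains) and 14 (operated strains) members called.

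Among the comparisons each member was named for, directions reversed for 3 surgery effects near 0 and for the strain difference of Rps18. The strain difference of Rpsa, which was named for its surgery effects, also reversed with its copy summed, as given above. In MRL, Rpl22l1 was 0.0355 by total counts, 0.0103 by voom and 0.0563 with a minimum of 10 CPM in 4 samples, and ran from -0.1028 to 0.154 without 1 library. Rpl29 was 0.0134 by total counts and 0.0246 with that minimum, and ran from -0.361 to 0.162 without 1 library. Rpl34 ran from -0.0606 to 0.1774 without 1 library. With copies summed, Rps18 went from -3.86 to 1.07 between unoperated and from -4.49 to 0.12 between operated strains. Of the other values of named members in the comparisons they were named for, 1141 kept direction and side of the threshold, 84 lost and 23 gained the call.

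Depth limits Rpl26 and Rpl14 in MRL, with 8 to 24 and 9 to 19 reads per library. It also limits Rpl29 and Rps2 there, with 14 to 33 and 25 to 48 reads, and Rpl39l, with 14 to 54 reads in unoperated MRL.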

Other observations

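Mitochondrial ribosomal proteins, which build the separate ribosome that translates mitochondrial mRNAs, were called in both directions. Of 77 genes, 36 were higher and 9 lower after surgery in BL6 (median log2 fold change 0.29), and 9 were higher and 5 lower in MRL (median 0.08) by edgeR's test. Of all genes, 35.1% were higher and 32.8% lower in BL6 and 22.3% and 22.7% in MRL. An interaction was called for 0 of the 77 and for 0.248% of all genes.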
